A study of Oncorhynchus kisutch with 226 samples.

Results

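The subject is a set of 150 liver microarray probes of coho salmon that were low in hatchery smolts of the Capilano River. They were chosen from 43567 probes in 3 steps. First, 16802 probes were kept that were measured on at least 80% of 226 arrays. Of these, 8885 were stage-flat, meaning that their means in the 6 season labels, put in order, had no gap of 0.4 or more between neighbours. In 594 of the flat probes the mean of 10 hatchery smolts lay at least 1 log2 unit below the mean of 10 wild smolts of the same river, and the 150 lowest were taken. Season means and the Capilano difference therefore chose the probes and are given as a description, with no test. All values are log2 ratios of a fish to the RNA pool hybridised beside it, so 0 is the level of the pool and a difference of 1 is a doubling of the ratio. The base of 2 and fish as the numerator are likely from the values and are not stated.

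Juvenile coho salmon were sampled in rivers and at sea, and the liver RNA of each fish was hybridised to 1 array against a pool made from the livers of the study. The Capilano smolts were 10 hatchery and 10 wild fish of 2009. Other river smolts were 9 hatchery fish of the Chehalis and 10 of the Puntledge River, 7 wild fish of the Salmon River, all of 2009, and 8 wild fish of the Chilliwack River of 2008, where 8 hatchery parr were also taken in 2008. Fish at sea came from the Strait of Georgia (SoG) and from the area labelled WCVI, the west coast of Vancouver Island. In spring they were 14 wild SoG fish. In summer there were 9 wild and 1 hatchery WCVI fish and 25 hatchery and 27 wild SoG fish of 2009, with 1 hatchery and 4 wild SoG fish of 2008. In fall there were 9 wild and 1 hatchery WCVI fish and 26 hatchery and 27 wild SoG fish of 2009, with 8 wild SoG fish of 2008. In winter there were 5 hatchery and 2 wild WCVI fish and 1 hatchery and 4 wild SoG fish. The labels give no genotype, treatment or age. Region labels were S_Main for Capilano fish, Fraser for Chehalis and Salmon River smolts, ECVI for Puntledge smolts and Chilliwack_R for Chilliwack fish. Fish at sea carried these or the labels Columbia, Oregon, Puget_Sound and North, and a few had none. Outside the Capilano River each river gave smolts of 1 origin only, so river and origin cannot be told apart there. Puntledge and Chilliwack smolts also differ from Salmon River smolts in region label.

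Smolting is the change by which a river-dwelling juvenile salmon prepares for the sea. It runs under thyroid hormone, growth hormone and cortisol, and the liver, the main site of metabolism and of plasma protein synthesis, is one of the organs that respond. Hatchery smolts are fed in tanks or channels until release, while wild smolts feed in the stream, and both kinds of rearing are known to leave fish that differ in size, body condition and energy stores. A liver ratio measured in bulk tissue cannot separate fewer cells of a type from less RNA per cell.

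Probe identifiers gave only the column and row of the spot (C065R100 is column 65, row 100), and no gene is named because no source used here pairs the identifiers with genes. The defining markers of liver could for the same reason not be checked. Between 12760 and 30826 probes were measured per array, array medians lay between -0.01 and 0.06, and 49.9% of the cells of the table were empty. Of the 150 probes, 64 were measured on every array. The median probe was measured on 225 arrays and the least measured on 181.

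Every one of the 150 probes had a mean below 0 in the Capilano hatchery smolts, and 144 had a mean above 0 in the Capilano wild smolts. The difference ran from -2.97 to -1.46 with a median of -1.74, a ratio 3.35-fold lower in hatchery fish, while the median over all 8885 flat probes was 0.05. In the limma fit 25.5% of all probes were lower and 25.3% higher in the Capilano hatchery smolts. All 150 members were among those called lower, which the choice fixes.

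The lowest difference was that of C065R100. Its ratio had a lowest, median and highest value of -4.46, -2.86 and -1.70 in the 10 Capilano hatchery smolts, against -3.64, 0.27 and 1.37 in the 10 wild smolts. The hatchery fish were the lower ones, but 3 of the 10 lay below every wild smolt, so the groups overlapped. C226R094, the next lowest, had -3.15, -2.44 and -0.63 in hatchery smolts, against -2.61, 0.68 and 2.05 in wild smolts. Here too 3 of the 10 hatchery fish lay below every wild smolt. At the edge of the set, the last probes inside were C049R065 and C260R029, with differences of -1.46 and -1.46, and the first outside were C076R023 and C157R071, with -1.46 and -1.45. The edge thus ran through a continuous range of differences.

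The values in each Capilano fish are given here by the median of its 150 ratios, its set median. Set medians of the 10 hatchery smolts had a lowest value of -1.53, a median of -1.19 and a highest of -0.28, against -0.89, 0.72 and 1.26 in the 10 wild smolts. One fish of each group stood apart from the rest of its group. Hatchery smolt 8 had -0.28, while the other 9 lay at or below -0.97. Wild smolt 1 had -0.89, while the other 9 lay at or above 0.33. Every hatchery smolt lay below every wild smolt for 15 of the 150 probes, against 0.744% of all probes. Without those 2 fish the count was 130 of the 150, against 13.1% of all probes. The rule had used these fish and those 2 were picked on the same values, so both contrasts with all probes follow from the choice and nothing is read from them. The median difference of the set was -1.84 without hatchery smolt 8 and -1.89 without wild smolt 1.

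The body condition of the Capilano groups also differed. Condition factor, 100 times the mass in g over the cube of the fork length in cm, had a lowest, median and highest value of 1.06, 1.14 and 1.30 in hatchery smolts, against 0.87, 0.97 and 1.05 in wild smolts, with no overlap. Fork length was 10.3, 11.5 and 12.5 cm in hatchery smolts, against 7.4, 10.4 and 12.7 cm in wild smolts. The mean number of measured probes was similar, at 21336 in hatchery and 21068 in wild smolts. What part condition or length has in the Capilano difference was not tested, since the rule had used those fish.

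The 2 Capilano groups lay on different slides, 5 for hatchery and 4 for wild fish, with none shared, and slide cannot be told apart from origin in these fish. The other fish on those slides give the values that bear on it. On slide 31 the hatchery smolts had set medians of -1.16 and -1.20, and the 2 ocean fish beside them 0.57 and 0.50. On slide 40 the hatchery smolt had -0.97, and the 3 summer fish beside it -1.35, -0.75 and -0.70. The slides thus held low and high fish side by side in the first case and low fish alone in the second. On slide 47 the hatchery smolts had -1.22 and -1.30 and the summer fish -0.79 and 0.23. On slide 57 the hatchery smolt had -1.17, with -0.99, 0.26 and -0.03 in a summer, a fall and a winter fish. In all, 6 of the 10 other fish on slides of hatchery smolts lay below 0, with a median of -0.37, and 4 of the 6 on slides of wild smolts, with a median of -0.35. These are mixed groups of fish. Within wild SoG fish of summer 2009, the 4 on slides of hatchery smolts had a median of -0.72 with 3 below 0, and the 23 on other slides 0.14 with 8 below 0. Those 3 were the fish of slide 40, all labelled ECVI, and the other, of slide 31, was labelled Fraser. Within wild WCVI fish of summer, the 3 on slides of hatchery smolts had a median of -0.79 with 2 below 0, and the 6 on other slides -0.79 with 4 below 0. The part of slide in the Capilano difference was not tested. On slide 58 the wild smolts had -0.89, 1.11 and 0.66 and the summer fish beside them 0.14. On slide 3 the wild smolt had 1.26, with -0.43, 0.71 and -1.30 in a fall, a summer and a spring fish. On slide 28 the wild smolts had 0.33 and 0.58, and the summer and fall fish beside them -0.37 and -0.34. The wild smolts were thus the higher fish on those slides, apart from wild smolt 1 on slide 58. Slide 27 held 4 wild smolts alone. Slide 6 held 4 hatchery smolts and no other fish, and without it the median difference of the set was -1.76.

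The 150 probes varied together in fish the Capilano difference had not used. Over the 206 fish outside the Capilano groups, with each season centred on its mean, the median correlation between 2 of the probes was 0.49, with quartiles of 0.35 and 0.60, and 97.8% of the 11175 pairs were above 0. Among 1000 flat probes drawn at random the median was 0.00 and 50.2% of pairs were above 0. The draw was not matched to the set in the direction of the Capilano difference or in SD. These correlations are a description over arrays that share slides, a pool and a normalization. The set median also moved with measures of the array over these fish, each season centred: Pearson's r was 0.42 with the number of measured probes and -0.43 with the SD of all probes (Spearman's rho 0.37 and -0.42). Without the 2 arrays farthest from the median of each measure, r was 0.39 and -0.42. These values too are a description, with no p, and their part in the co-variation was not tested. A probe's correlation with the median of all other members had a median of 0.71 and was above 0.5 for 136 of the 150. The ends of that order, chosen after their values were seen, were C116R061 with 0.90 and C179R043 with 0.09. The set was not closed, because 131 of the 8735 other flat probes, 1.5%, followed its median at least as closely as its own median probe did.

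An opposite set, the 150 flat probes with the highest Capilano differences (1.29 to 2.79), ran against these probes in other fish too. Of the 206 other fish, 74 had the set median below 0 and that of the opposite set above 0, 101 had the reverse, 31 had both below 0 and none had both above 0. All 10 Capilano hatchery smolts were of the first kind. In the wild smolts 9 were of the second kind and wild smolt 1 was of the first.

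The spots of the set were spread over the array. They lay between columns 5 and 263 of 266 and rows 1 and 169 of 170, and the array cut at its middle column and row held 39, 34, 39 and 38 of them in its 4 blocks. Of all pairs of members, 2 were on touching spots. The tightest pair over the 206 fish, C187R160 and C162R125 (chosen after its value was seen), had a correlation of 0.94 with their spots 43 positions apart. The probes were more variable than the flat probes in general: their SD over the 206 other fish had a median of 0.79, against 0.50 over all flat probes.

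Across stages the rule limited only the gap between neighbouring season means, so flat did not mean level. The range between a probe's highest and lowest season mean had a median of 0.72 and reached 1.57. From parr to winter, the median of the 150 season means was -0.15 (parr), -0.19 (smolts), -0.41 (spring), -0.05 (summer), -0.11 (fall) and 0.18 (winter). Spring was the lowest and winter the highest of them. In spring 130 of the 150 probes had a mean below 0, and in winter 37. Winter arrays also had more measured probes, with a mean of 25538, against 21023 to 22014 in the other seasons. That number moved with the set median within seasons, and its part in the winter level was not tested.

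Within each season apart from winter, the fish ranged more widely than the season medians did among themselves. Set medians of the 14 spring fish ran from -1.30 to 1.37 with a median of -0.64, and 11 of the 14 were below 0. The 8 parr ran from -0.66 to 0.33 with a median of -0.16. The 12 winter fish ran from -0.05 to 0.64 with a median of 0.23 and were the narrowest of the seasons. In winter the 5 hatchery WCVI fish had 0.35, -0.05, 0.24, 0.06 and 0.23 and the 2 wild WCVI fish 0.38 and -0.03. The 4 wild SoG fish of winter had 0.64, 0.23, 0.32 and 0.18, so the winter groups overlapped, and the 1 hatchery SoG fish had -0.04.

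The probes lowest in the Capilano difference were spread widely in the other groups. C065R100 averaged -1.50 ± 1.25 in 9 Chehalis and -0.03 ± 1.49 in 10 Puntledge hatchery smolts, against -1.65 ± 1.02 in 7 Salmon River and -1.05 ± 1.25 in 8 Chilliwack wild smolts (SD). Puntledge fish were the high ones for this probe, and all 4 groups overlapped. It averaged -0.81 ± 0.52 in 8 parr and -1.16 ± 1.5 in 14 spring fish (SD). In summer it was -0.71 ± 1.22 in 25 hatchery and -0.59 ± 1.15 in 27 wild SoG fish of 2009 (SD), which differed by far less than their spread. In fall it was -0.72 ± 1.31 in 26 hatchery and -0.99 ± 1.52 in 27 wild SoG fish (SD), and -1.90 ± 0.98 in 9 wild WCVI fish.

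C226R094 averaged -0.78 ± 0.95 in Chehalis and -0.28 ± 1.42 in Puntledge hatchery smolts, against -0.98 ± 0.83 in Salmon River and -0.95 ± 1.26 in Chilliwack wild smolts (SD, n as above). The hatchery means were the higher ones here, within the spread between fish. It averaged -0.87 ± 0.52 in parr and -0.90 ± 1.30 in spring fish (SD). In summer SoG fish of 2009 it was -0.16 ± 0.92 in hatchery and -0.29 ± 0.97 in wild fish, and in fall -0.61 ± 0.97 in hatchery and -0.54 ± 1.16 in wild fish (SD). Neither probe had another group of 2 or more fish with a mean as low as that of the Capilano hatchery smolts.

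For most of the probes the other groups lay between the Capilano means, both of which the rule had used. Of the 150, the number with a group mean above that of Capilano hatchery smolts and below that of Capilano wild smolts was 148 in Chehalis hatchery smolts, 135 in Puntledge hatchery smolts, 127 in Salmon River wild smolts and 133 in Chilliwack wild smolts. The number was 143 in parr, 147 in spring fish and 102 in the 4 wild SoG fish of winter. Low set medians were not confined to the Capilano hatchery. Of the 206 other fish, 14 were at or below -0.97, the level of the lower 9 hatchery smolts, and they came from smolts of both other hatcheries, from spring, summer and fall fish, and from both origins. Their arrays had between 12917 and 25898 measured probes. The lowest was a wild SoG fall fish with -1.48, in which 97.1% of the measured probes of the set were below 0. In steps of 0.5 from -1.5 to 1.5, the set medians of the 206 fish numbered 11, 51, 43, 82, 16 and 3, so most lay within 1 unit of the pool on either side. The 4 groups of a single fish had -0.87 (hatchery, WCVI, summer), -0.43 (hatchery, SoG, summer 2008), -0.95 (hatchery, WCVI, fall) and -0.04 (hatchery, SoG, winter). The 4 wild SoG fish of summer 2008 had -0.69, -0.56, 1.0 and 0.20.

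Whether hatchery smolts of other rivers were also low was tested against the wild smolts of the Salmon River alone. The Chilliwack wild smolts of 2008 were not compared with hatchery smolts. Their set medians had a lowest, median and highest value of -0.83, -0.55 and 1.03. That median was below those of the Chehalis (-0.17) and Puntledge (-0.28) hatchery smolts, so low values in the set were not particular to hatchery smolts. In Chehalis hatchery smolts 26 of the 150 probes were lower and 2 higher than in Salmon River wild smolts (limma, Benjamini-Hochberg adjusted p below 0.05), or 17.3% and 1.33%. Over all probes tested 10.3% were lower and 10.6% higher. In Puntledge hatchery smolts 37 were lower and 5 higher, or 24.7% and 3.33%, against 7.94% and 7.52% of all probes. The median change of the set was -0.53 for Chehalis and -0.56 for Puntledge, with 0.02 and 0.01 over all probes, against the -1.74 of the Capilano River, which the rule had used. Both comparisons share the 7 Salmon River fish.

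C138R029 changed most in both comparisons. It had a lowest, median and highest ratio of -2.35, -0.93 and -0.16 in 9 Chehalis hatchery smolts and -2.01, -0.96 and 0.35 in 10 Puntledge hatchery smolts, against -0.28, 1.73 and 2.64 in 7 Salmon River wild smolts. The hatchery fish were the lower ones, with overlap at the lowest wild fish. Its change was -2.24 ± 0.44 (SE, adjusted p = 0.00028) for Chehalis and -2.15 ± 0.42 (SE, adjusted p = 0.000416) for Puntledge. C102R153 was lower in Chehalis smolts by a change of -2.23 ± 0.35 (SE, adjusted p = 9.74e-06), with -1.79, -1.07 and -0.34 in Chehalis hatchery smolts, against -0.18, 1.53 and 1.86 in Salmon River wild smolts, and no overlap. C099R104 was lower in Puntledge smolts by a change of -2.06 ± 0.41 (SE, adjusted p = 0.000526), with -2.96, -1.61 and -0.14 in Puntledge hatchery smolts, against -0.72, 0.73 and 1.03 in Salmon River wild smolts. The groups overlapped for that probe. For each of these probes the Salmon River fish were also higher than the 8 Chilliwack wild smolts. Those had medians of -0.32 (C138R029), -0.90 (C102R153) and -1.09 (C099R104). Salmon River minus Chilliwack changes were 1.28, 2.01 and 1.63 (limma, adjusted p = 0.0405, 0.0002 and 0.00844). Low values of these probes were thus not particular to hatchery smolts.

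A few probes of the set ran the other way. C195R107 was higher in Chehalis smolts by 1.78 ± 0.45 (SE, adjusted p = 0.00431) and in Puntledge smolts by 1.5 ± 0.44 (SE, adjusted p = 0.0159). Its lowest, median and highest ratios were -0.81, 0.49 and 1.72 in Chehalis hatchery smolts and -1.33, 0.26 and 1.85 in Puntledge hatchery smolts, against -2.53, -1.20 and -0.13 in Salmon River wild smolts. C015R144 was higher by 1.23 ± 0.44 in Chehalis smolts (SE, adjusted p = 0.0374) and by 1.76 ± 0.42 in Puntledge smolts (SE, adjusted p = 0.00336). The Salmon River fish were the low ones for both probes, and the groups overlapped.

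The set medians of these fish had a lowest, median and highest value of -1.18, -0.17 and 0.32 in Chehalis hatchery smolts and -1.20, -0.28 and 0.39 in Puntledge hatchery smolts, against -0.15, 0.17 and 0.31 in Salmon River wild smolts. The hatchery groups reached lower but their upper fish lay among the wild ones. Fewer probes were measured per array in the hatchery fish, with means of 19046 in Chehalis and 20093 in Puntledge smolts and 22684 in Salmon River smolts. With that number as a covariate 8 probes were lower and 2 higher in Chehalis smolts, together 6.67% of the set against 9.48% of all probes (18.7% and 20.9% without the covariate). In Puntledge smolts 20 were then lower and 5 higher, together 16.7% against 9.27% of all probes (28% and 15.5% without it). Chehalis and Salmon River smolts shared no slide. When slide was a fixed block, which could be fitted for 128 of the 150 probes, none was called in either comparison, and 0.0214% of all probes were called for Chehalis and 1.32% for Puntledge. Under that block Salmon River smolts met smolts of other rivers only on slide 11, and Chehalis smolts only on slide 8. Both comparisons thus rested on few fish under that block, and its power to call a probe was not measured. On slide 11, which held 1 fish of each, the Puntledge smolt had a set median of -0.28 and the Salmon River smolt 0.12.

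None of the 150 probes was called between Puntledge and Chehalis smolts by limma, while 1.62% of all probes were higher and 3.05% lower in Puntledge fish. At an unadjusted p below 0.05 there were 18 of 150 (12% against 17.2% of all probes), 9 in each direction, and the median change was 0.02. The smallest p was that of C083R103, with a change of -0.64 ± 0.22 (SE, adjusted p = 0.0821). On slide 8, the 1 slide that held both, the mean set median was -0.42 in 2 Puntledge fish and -0.08 in 2 Chehalis fish.

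Wild smolts differed among themselves. In Salmon River smolts of 2009, 25 of the 150 probes were higher and 5 lower than in Chilliwack smolts of 2008 (limma), or 16.7% and 3.33%, against 10.3% and 6.69% of all probes. The median change was 0.31. River, region label and year cannot be told apart here, and the rivers shared no slide. With slide as a fixed block, fitted for 126 of the 150 probes, 2 were higher and none lower, 1.59% against 4.56% of all probes. The probe that rose most, C075R055, had -0.38, 0.60 and 1.22 in 7 Salmon River smolts, against -4.21, -1.67 and 0.92 in 8 Chilliwack smolts, a change of 2.11 ± 0.47 (SE, adjusted p = 0.00206). C085R017 followed with a change of 2.09 ± 0.47 (SE, adjusted p = 0.00249). C195R107 fell by 2.30 and C015R144 by 1.90 (adjusted p = 0.000853 and 0.00319). C195R107 turned to a change of 0.80 under that fixed block, which linked the 2 rivers only through Puntledge smolts on shared slides. These are the low values of the same 7 Salmon River fish that entered the comparisons with the Chehalis and Puntledge smolts. Set medians in Chilliwack smolts ran from -0.83 to 1.03 with 2 fish above 0, so that group overlapped both Capilano groups.

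Size and body condition were tested in the 34 smolts outside the Capilano River, with river as a covariate. No probe of the set and none of the 16802 tested was called for condition factor (0% of all probes in either direction, limma). At an unadjusted p below 0.05, 17 of the 150 probes had a positive slope on condition and none a negative one, while 3.95% of all probes passed in either direction. The median slope of the set was 2.42 per unit of condition factor, above 0 for 145 of the 150. Over all probes it was 0.18, with 45.2% of slopes below 0. The 150 probes varied together, so such counts are not 150 separate observations, here or in the comparisons below. The smallest p was that of C194R169, with a slope of 4.72 ± 1.6 (SE, adjusted p = 1.00). Fork length also gave no call in the set or among all probes tested (0% of all probes). Its median slope in the set was -0.07 per cm, and 8 of 150 probes passed at an unadjusted p below 0.05 (5.33% against 4.59% of all probes). The smallest p was that of C015R144, with a slope of 0.40 ± 0.16 per cm (SE, adjusted p = 0.976).

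At sea, no probe of the set was called between hatchery and wild fish of the Strait of Georgia. In summer 2009 no probe of the set and 0% of all probes were called between 25 hatchery and 27 wild fish (limma). At an unadjusted p below 0.05 there were 3 of 150 (2% against 4.43% of all probes), and the median change was 0.09. Set medians had a lowest, median and highest value of -1.0, 0.24 and 0.91 in hatchery fish, against -1.35, 0.12 and 0.57 in wild fish. The smallest p was that of C211R106, which had -0.57, 0.39 and 0.92 in 23 hatchery fish, against -1.44, 0.19 and 0.77 in 24 wild fish, a change of 0.41 ± 0.14 (SE, adjusted p = 0.879). The groups overlapped almost wholly.

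In fall 2009 no probe of the set and 0% of all probes were called between 26 hatchery and 27 wild fish, and 9 of 150 passed at an unadjusted p below 0.05, all lower (6% against 4.03% of all probes). The median change was -0.17, below 0 for 135 of the 150, while 50.8% of all probes were below 0. Set medians were -1.04, -0.02 and 0.46 in hatchery fish, against -1.48, 0.15 and 0.98 in wild fish. C184R160 had the smallest p, with a change of -0.48 ± 0.19 (SE, adjusted p = 0.999). On the 7 slides that held both origins in fall, the hatchery fish were lower on 2, with differences from -0.72 to 0.41. On the 10 such slides of summer they were lower on 5, with differences from -0.80 to 1.21. The summer-to-fall change in the origin effect, a term added after the data were examined, was called for no probe of the set and for 0% of all probes. It had a median of -0.27 in the set, with 13 of 150 at an unadjusted p below 0.05 (8.67% against 7.06% of all probes) and C211R106 lowest in p at a change of -0.65 ± 0.20 (SE, adjusted p = 0.691).

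The Capilano smolts carry the region label S_Main, and ocean fish of that label were compared separately. In summer 6 hatchery and 9 wild fish, and in fall 7 hatchery and 8 wild fish, gave no call in the set and 0% of all probes in either direction (limma). At an unadjusted p below 0.05 there was 1 of 150 probes in summer, with 2.26% of all probes, and there were 2 of 150 in fall, with 1.71% of all probes. The median change was -0.02 in summer and -0.05 in fall. Set medians of summer ran from -0.85 to 0.91 in S_Main hatchery fish, against -0.96 to 0.41 in wild fish. Those of fall ran from -0.34 to 0.46 in hatchery fish, against -0.13 to 0.75 in wild fish. The smallest p belonged to C044R015 in summer, with a change of -0.66 ± 0.32 (SE, adjusted p = 1.00), and to C238R043 in fall, with -0.45 ± 0.19 (SE, adjusted p = 1.00).

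Wild fish of the west coast had lower ratios than wild fish of the Strait in some probes of the set. In summer 2009 the wild WCVI fish were labelled Columbia or North, and the wild SoG fish ECVI, Fraser or S_Main. In fall ECVI was the only region label found in both areas. Region label and area therefore cannot be told apart in summer, and hardly in fall. In fall 2009, 9 of the 150 probes were lower and none higher in WCVI fish (limma), 6% against 1.74% of all probes lower and 2.06% higher. In summer 2 were lower and none higher, 1.33% against 3.3% of all probes lower and 2.36% higher. The median change was -0.51 in fall, below 0 for 142 of the 150, and -0.28 in summer, below 0 for 124. Over all probes the medians were 0.00 and -0.03, with 50.4% and 52.9% of changes below 0.

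Of the 9 probes called in fall, C060R022 had the lowest change. Its ratio was -1.42, -0.57 and 0.06 in 9 WCVI fish, against -0.54, 0.50 and 1.95 in 25 SoG fish, a change of -1.16 ± 0.30 (SE, adjusted p = 0.0272). C210R100 had -1.71, -1.18 and 0.16 in 9 WCVI fish, against -1.89, 0.23 and 1.48 in 27 SoG fish, a change of -1.12 ± 0.29 (SE, adjusted p = 0.0264). Most WCVI fish were low for both probes, and the groups overlapped. In summer C119R088 had -1.88, -1.12 and 0.18 in 9 WCVI fish, against -1.30, 0.16 and 1.42 in 27 SoG fish, a change of -1.0 ± 0.29 (SE, adjusted p = 0.029). C184R003 changed by -0.72 ± 0.22 (SE, adjusted p = 0.0377) in summer.

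Set medians in summer were -0.99, -0.79 and 0.71 in WCVI wild fish, against -1.35, 0.12 and 0.57 in SoG wild fish. In fall they were -1.09, -0.19 and 0.20 in WCVI wild fish, against -1.48, 0.15 and 0.98 in SoG wild fish. In summer WCVI arrays had fewer measured probes, with a mean of 19902 against 22026, and with that number as a covariate none of the set was called, with 1.93% of all probes. Fall WCVI fish were longer, with a median of 29.4 cm against 23.2 cm, and with fork length as a covariate 1 probe of the set was called in fall (0.667% against 0.673% of all probes) and 1 in summer (0.667% against 3.41%). The areas shared 1 slide in fall, where the WCVI fish had a set median of 0.01 and the SoG fish 0.68, and none in summer. With slide as a fixed block no probe of the set was called, with 0.0359% of all probes in summer and 0% in fall. The median change was 0.79 in summer, with the sign turned, and -0.02 in fall under that block. Both rest on the few WCVI fish that shared a slide with wild fish of another season or area. In summer these were fish 5 and 8, with set medians of -0.74 and 0.71. The summer-to-fall change in the area effect, also added after the data were examined, was called for no probe of the set, while 0% of all probes were higher and 0.00595% lower. At an unadjusted p below 0.05 there were 8 of 150 (5.33% against 8.9% of all probes), and C259R086 had the smallest p with a change of -1.15 ± 0.35 (SE, adjusted p = 0.197).

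Sex, length and condition were tested over summer and fall fish of the Strait of 2009. No probe of the set was called for males minus females (0.00595% of all probes higher, 0% lower, limma), and 1 of 150 passed at an unadjusted p below 0.05, against 3.17% of all probes. That was C006R028, with a change of -0.21 ± 0.10 (SE, adjusted p = 1.00). Fork length gave no call in the set (0.131% of all probes rose, 0.0655% fell), and 4 of 150 passed unadjusted (2.67% against 8.21% of all probes). The median slope was 0.00 per cm, and C040R132 had the smallest p with -0.06 ± 0.03 per cm (SE, adjusted p = 0.452). Condition factor gave no call in the set (0.00595% of all probes rose, 0% fell), and 2 of 150 passed unadjusted (1.33% against 9.95% of all probes). Its median slope was -0.17 per unit, and C044R168 had the smallest p with 2.72 ± 1.0 (SE, adjusted p = 0.337).

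Catch year was compared in wild fall fish of the Strait. In 27 fish of 2009, 9 of the 150 probes were higher and none lower than in 8 fish of 2008 (limma), 6% against 2.06% of all probes higher and 1.64% lower. The median change was 0.49, above 0 for 146 of the 150. Over all probes it was 0.02, with 48.3% of changes below 0. Set medians were -1.48, 0.15 and 0.98 in 2009, against -0.87, -0.48 and 0.38 in 2008. Of the 8 fish of 2008, fish 8 was the only one above 0. C184R160 had -0.66, 0.10 and 1.24 in 22 fish of 2009, against -2.72, -1.62 and 0.36 in 8 fish of 2008, a change of 1.51 ± 0.27 (SE, adjusted p = 0.00466). C162R095 had -1.05, 0.56 and 1.40 in 23 fish of 2009, against -1.70, -0.93 and 0.91 in 5 fish of 2008, a change of 1.31 ± 0.32 (SE, adjusted p = 0.022). No slide held wild fall SoG fish of both years, and slide cannot be told apart from year among them. Region label and catch place differed too and were not adjusted for. No fish of 2008 was labelled ECVI or S_Main, while fish of 2009 carried both labels. Of the 8 fish of 2008, 6 came from the middle of the Strait, and fish 8 was the only one from the south. The count moved with the processing: 29 of the 150 were called with no slide block (19.3% against 10.8% of all probes) and 18 with measured probes as a covariate (12% against 6.77%). After quantile normalization 5 were called (3.33% against 2.23%), and none of the 64 probes measured on every array (0% against 2.19%).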

How the data were processed

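The authors deposited 1 log2 ratio for each probe on each array. Per the labels' protocols, amplified liver RNA of each fish carried 1 Alexa dye and the liver pool another. The sources used here do not give the scanner, background correction, normalization or rule for empty cells. The base and numerator are not stated. The range of values (-10.1 to 10.0) and the slope of probe mean on probe variance (-0.364; a base of 2 and fish over pool give about -0.347) make log2 of fish over pool likely. Array pairs correlated down to -0.46, with 427 of 25425 below -0.3. The labels give all fish the same dye and the stages could oppose, so the direction was kept. With the other numerator every sign turns. The 2 deposited tables were equal on shared rows, and the second held 18 more rows. No column lacked a sample.

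Precision is limited by the number of arrays. The fits took each probe with a value on 80% of the arrays or more. They were made with limma 3.58.1 in R 4.3.3 (lmFit, eBayes), slide as a random block with a correlation estimated on 3000 probes, and Benjamini-Hochberg adjustment over all probes tested. A probe was called at an adjusted p below 0.05. All 54 smolts, 105 SoG fish and 72 wild fish entered 1 fit per family. Groups came from the labels, each array was 1 fish, and p-values set differences and slopes against the spread between fish within groups. Each smolt group came from 1 river, so the p-values do not measure the spread between rivers or hatcheries. Mass was entered as 0 for 23 fish, which was treated as missing. Where a probe was empty on an array, its fit dropped that fish. The fits were tested on simulated data. The 150 probes, the comparisons and the alternatives were chosen with earlier results of these data known. Named probes were the 2 lowest, the last 2 inside and first 2 outside the set, and per comparison up to 2 called members per direction with the largest change or, with none called, the member with the smallest p. Gene lists, cell type markers and probe sequences were not used here, since the probes could not be paired with genes.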

Additional observations from a re-analysis of the deposited data

Results flagged for a closer look

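Among the 11 groups of 4 to 10 fish outside the Capilano smolts, 1 had a fish that stood apart by Dixon's ratio of its gap to the group's range, which chance gives in about 1 in 20 groups. It was wild SoG fall fish 8 of 2008, with a set median of 0.38, the highest of its group, and a gap of 0.635 of the range. The rule that chose the probes used the Capilano smolts, so their fish that stand apart are given as a description, not set against chance. Capilano hatchery smolt 8 had a set median of -0.28, the highest of its group, with a gap of 0.548 of the range. Capilano wild smolt 1 had -0.89, the lowest of its group, with a gap of 0.568 of the range.

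The second deposited table, which its name says includes all controls, held 18 rows beside the probes, with identifiers that start with DCP. What kind of control they are is not stated. The mean of the 6 rows starting DCP_22, measured on 214 to 225 arrays, was 0.51 ± 0.18 in Capilano hatchery smolts and 0.12 ± 0.10 in Capilano wild smolts (SD, n = 10 each), a difference of 0.39. It ran from 0.24 to 0.70 in hatchery smolts, against -0.02 to 0.27 in wild smolts, so the groups overlapped at their edges. In the 205 other fish with a value it was 0.41 ± 0.23 (SD). Over these, each season centred, it moved against the set median, with Pearson's r of -0.44, Spearman's rho of -0.45 and an r of -0.41 without the 2 arrays farthest from its median, given as a description with no p. The rows starting DCP_20, measured on 55 to 179 arrays, did not share one direction. Their Capilano differences ran from -0.17 to 0.31, in 2 to 9 hatchery and 1 to 7 wild smolts. The rows starting DCP_1 were measured on 8 to 19 arrays only. The part of the DCP rows in the difference of the 150 probes was not tested.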

How the results depend on the processing

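No paired analysis was possible because the replicate numbers only follow the order of the samples. Numbers are probes of the set called, with the count over all probes in brackets. For Chehalis against Salmon River smolts (28 [3511]) the count was 0 [3] with slide as a fixed block, 14 [1944] among probes measured on every array, of which 64 are in the set, and 10 [1593] with measured probes per array as a covariate. For Puntledge against Salmon River smolts (42 [2597]) the same settings gave 0 [185], 26 [1513] and 25 [1557]. Puntledge against Chehalis smolts (0 [784]) gave 2 [1060] after quantile normalization and 0 [2] with the fixed block. Salmon River against Chilliwack smolts (30 [2862]) gave 2 [628] with the fixed block and 10 [1193] among probes measured on every array, and C195R107 turned to 0.80 with the fixed block. For area in summer (2 [951]) the counts were 9 [2393] with no slide block, 0 [6] with the fixed block, 0 [199] after quantile normalization, 1 [548] on every array, 0 [325] with measured probes and 1 [573] with fork length as a covariate. C119R088 turned to 0.50 there with the fixed block, which rests on few fish for the areas and for the smolt rivers. For area in fall (9 [638]) they were 17 [1714], 0 [0], 5 [321] and 2 [202], and 1 [113] with fork length. For catch year (9 [621]) they were 29 [1819] with no block, 5 [375] after quantile normalization, 0 [157] on every array and 18 [1137] with measured probes. The fixed block could not be fitted for the Capilano groups or for the wild fall fish of the 2 years, which share no slides, and the cause of the other shifts was not tested, beyond the fewer probes tested on every array. Over all probes, the Capilano count (8529) was 3960 on every array. Fork length in smolts (0) gave 1 after quantile normalization, on every array and at 50% of arrays. Fork length at sea (33) gave 5 with measured probes, condition at sea (1) between 0 and 12, sex (1) 0 on every array, and the change of the area effect (1) between 0 and 51.

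Of the 150 probes, 64 were chosen again among probes measured on every array, 80 with a season gap under 0.3 and 150 from the other deposited table. These numbers were fixed in advance and say nothing about stability. A stricter limit keeps every member that meets it, and the deposited tables were equal on shared rows. The number chosen again was 94 with a season gap under 0.5, 95 after quantile normalization and 125 with medians of fish in place of means. Without hatchery smolt 8 the number was 134 and without wild smolt 1 it was 139, both added after the data were examined. The median Capilano difference was -1.44 after quantile normalization and lay within the spread between fish of -1.74 under all 4 alternatives run. Of all recomputed counts and values, for the comparisons, the choice and the Capilano difference, 97 changed by no more than 1.5 times or less than that spread. These 97 include the 4 Capilano differences and the choices that shared 125, 134, 139 and 150 probes, the last fixed in advance. Many of those counts were 0 probes of the set under both settings, so they say little about stability. In 22 results for named probes a call of the main fit was lost under another setting, and in 2 the sign turned. Signal over background was not analysed here.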

Other observations

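Set medians also differed between region labels within a season, which no test covered. In spring the 8 fish labelled ECVI ran from -1.30 to 0.15 with a median of -0.69, and the 4 labelled Fraser from -1.17 to 1.37 with a median of 0.27. In fall the 20 ECVI fish had a median of -0.60 with 15 below 0, the 24 Fraser fish 0.18 with 7 below 0 (0.21 with 3 of 19 below 0 in 2009 alone) and the 15 S_Main fish 0.24 with 6 below 0. In summer the order was another one: 16 ECVI fish had a median of 0.12, 25 Fraser fish 0.34 (0.35 in the 20 of 2009), 15 S_Main fish -0.08 and 8 Columbia fish -0.81. The 8 Columbia fish were all WCVI fish and the others SoG fish, so label and area cannot be told apart for them. Every one of these labels had fish on both sides of 0.

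Catch place within the Strait showed a similar mixture. Summer fish of 2009 had a median of -0.62 in the south (10 of 16 below 0), 0.27 in the middle (6 of 21) and 0.16 in the north (2 of 15). Fall fish of 2009 had 0.15 in the south (9 of 25 below 0), -0.06 in the middle (10 of 19) and -0.06 in the north (5 of 9). All 6 fall fish of 2008 from the middle were below 0, with a median of -0.48.

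Fish of 1 season that shared a slide were often closer to each other than fish on different slides. The median gap between the set medians of 2 summer fish was 0.27 on the same slide (63 pairs) and 0.54 on different slides (2148 pairs). In fall it was 0.37 (62 pairs) and 0.55 (2423 pairs), and in smolts outside the Capilano River 0.50 (33 pairs) and 0.54 (528 pairs). In winter it was 0.28 (13 pairs) and 0.23 (53 pairs). Fish on a slide also tended to share a group, so slide and group are mixed in these gaps.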
